A study of Mus musculus with 12 samples.

Results

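The genes described here encode the proteins of the cytosolic ribosome. They were taken from the table of raw counts by symbol: Rpl or Rps followed by a digit, together with Rplp0, Rplp1, Rplp2 and Rpsa, without names holding -ps, without the Rps6k kinases and without rows whose counts summed to under 120 over all libraries. The rule gave 82 genes among 24384 rows with a gene symbol, and all 82 passed the filter on low counts that left 16618 tested genes. Of the 82, 44 encode proteins of the large (60S) subunit and 31 encode proteins of the small (40S) subunit; the other 7 carry a ribosomal protein name but are relatives of those genes (Rpl22l1, Rpl36al, Rpl37rt, Rpl7l1, Rps27l and Rps4l) or, for Rps19bp1, a protein that binds a subunit.

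RNA came from mouse hippocampus, with poly(A)-selected sequencing libraries from 12 samples in 3 groups of 4. One group held rTg4510 mice, a tauopathy model in which, as background, a human mutant tau transgene is switched on in forebrain neurons through a CaMKII-driven tetracycline transactivator. The next held rTg4510 mice given lamivudine (3TC), which blocks reverse transcriptase as a nucleoside analogue, and the last held littermate controls, labelled without a genotype. Age, dose and length of treatment were not given in the sources used here, and nothing in the labels says more of how the samples were taken, so each p-value reflects only how far these 12 samples spread. The series' title asks how 3TC changes hippocampal signatures of inflammation in these mice; the comparisons below ask whether the ribosomal protein genes differed between the same groups. Each library is named by its group, labelled sex and number (for example littermate M2).

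As background, the small subunit reads the messenger RNA and the large subunit joins the amino acids, and both need their proteins in nearly equal numbers. Cells therefore tend to hold the messenger RNAs of these proteins at matched levels. Most of these messages begin with a run of pyrimidines at the 5′ end, the TOP motif, through which mTORC1 signalling and the protein Larp1 set how much of each message is translated; in neurons they are also found in dendrites and axons. RNA sequencing measures how much message is present, not how much of it is translated.

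The pyrimidine run is the feature that ties the set together in sequence. Bases near the annotated starts of genes that recur in the results are therefore shown first. Promoter windows of 300 bases (250 before and 50 after the annotated start) were held in RefSeq on GRCm38.p6 for 62 of the 82 genes. Each line below gives 30 bases of the gene's own strand. The capitals mark the longest run of C and T within 50 bases of the start. Each window is set around that run and need not hold the start. The run begins at position -37 from the start in Rps24, -50 in Rpsa, -22 in Rps27l and 41 in Rpl41. Whether the runs lie at the 5′ end of the message was not tested.

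Rps24 (small subunit), chr14:24490711-24490740, plus strand: agcggTCCTCTTTTCCTCCTCTCCagctcc
Rpl35a (large subunit), chr16:33056469-33056498, plus strand: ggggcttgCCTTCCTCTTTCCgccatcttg
Rpl41 (large subunit), chr10:128549119-128549148, minus strand: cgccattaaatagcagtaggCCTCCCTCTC
Rplp2 (stalk of the large subunit), chr7:141447636-141447665, plus strand: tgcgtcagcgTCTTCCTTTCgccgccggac
Rpl31 (large subunit), chr1:39367825-39367854, plus strand: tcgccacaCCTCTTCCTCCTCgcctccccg
Rpl15 (large subunit), chr14:18270967-18270996, minus strand: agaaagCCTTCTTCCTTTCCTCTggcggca
Rpl34 (large subunit), chr3:130730330-130730359, minus strand: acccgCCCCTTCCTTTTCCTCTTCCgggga
Rps27 (small subunit), chr3:90213631-90213660, minus strand: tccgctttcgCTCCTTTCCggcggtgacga
Rps27l (relative of Rps27), chr9:66946054-66946083, plus strand: cccgcctccaCTCCTCTCCactcctccccg
Rpsa (small subunit), chr9:120127705-120127734, plus strand: cggaagttctcCCTTTTTgcttagcctgct

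A run of at least 8 pyrimidines on the gene's strand within 50 bases of the start was present in 50 of the 62 genes (80.6%), against 37.4% of the tested genes with a promoter window and 39.3% of all genes with one. The run spans 20 bases in Rpl34, 19 bases in Rps24 and 17 bases in Rpl15, while in Rpsa the longest is 7 bases. The letters CCGGAAG, searched on both strands of the 300 bases, occurred in 24 of the 62 genes (38.7%), against 16.6% of tested genes and 9.9% of all genes; Rpl31, Rpl15, Rpl34, Rplp2 and Rps27l were among those that held them. The letters TATAAA in the 50 bases before the start, on the gene's strand, were found in 1 of the 62 genes (1.6%) and in 2.2% of tested genes. Read on the opposite strand, CCGGAAG can overlap the end of a pyrimidine run.

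Library depth ran from 27286787 to 58173678 counts. The 82 genes held 1.07% to 1.53% of the counts of a library. Replicates differed by more than sampling noise: the smallest chi-square per gene between 2 libraries of a group was 17.3. The counts of sex-linked genes matched the labelled sex in 10 of 12 libraries, and the libraries littermate F3 and littermate M3 went against theirs, so sex was left out of the comparisons. Hippocampal markers were present throughout, with 216 to 470 counts per 1000000 scaled counts (CPM) summed over 8 dentate granule neuron markers and 470 to 809 CPM over 8 CA pyramidal neuron markers. The dentate markers were nevertheless low in some libraries: as a mean log2 deviation from the average of the 12 libraries they stood at -2.23 in rTg4510 F3 and -0.918 in rTg4510+3TC F2, against -0.13 to 0.915 in the other 10. Markers of other tissue were high in some libraries: choroid plexus markers summed to 3813, 2119 and 4401 CPM in littermate F1, littermate F3 and rTg4510 M1, striatal neuron markers to 399 CPM in rTg4510 F3, and thalamic neuron markers to 890 CPM in rTg4510+3TC F2.

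**Figure D1:**
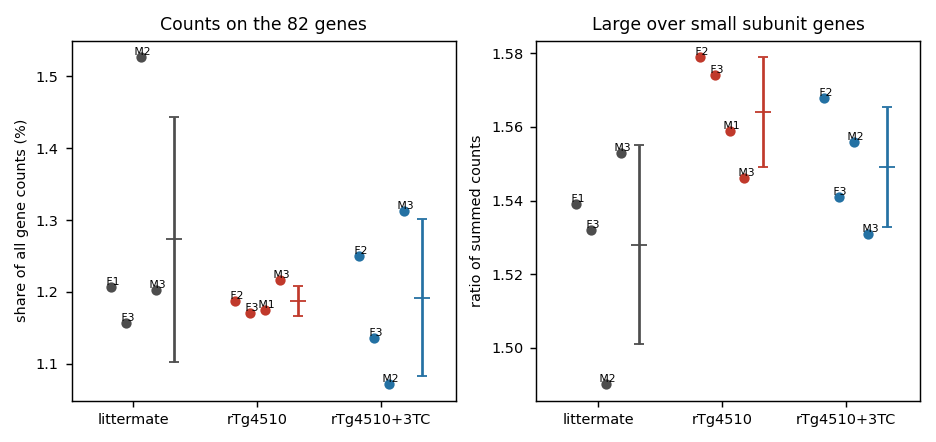
Share of all gene counts that fell on the 82 genes (left, percent) and ratio of counts on large subunit genes to counts on small subunit genes (right) in each library, with the mean and SD of each group of 4. Both vertical axes start above 0. Littermate M2 has the highest share (1.53%) and the lowest ratio (1.49) of the 12 libraries.

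One library dominated the variation of this gene set. In littermate M2 the 82 genes took 1.527% of the counts (95% exact binomial interval 1.523 to 1.532%, counting error only), while littermates F1, F3 and M3 gave 1.206%, 1.157% and 1.203%. Untreated rTg4510 mice gave 1.187%, 1.170%, 1.174% and 1.216% in F2, F3, M1 and M3, a narrow range, and treated mice gave 1.250%, 1.135%, 1.071% and 1.313% in F2, F3, M2 and M3. The group means were 1.273% ± 0.171 for littermates, 1.187% ± 0.0208 for rTg4510 mice and 1.192% ± 0.109 for treated mice (SD, n = 4 each), and all 3 ranges overlapped.

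The excess in littermate M2 ran through both subunits. Its level exceeded all other 3 littermates for 78 of the 82 genes, against 33.1% of tested genes, and it was the highest of the 12 libraries for 66 genes (80.5%), against 12.9% of tested genes. The median log2 ratio of littermate M2 to the mean of the other 3 littermates (on the CPM + 1 scale) was 0.353 over the 82 genes and -0.0102 over all tested genes. Rpl9 stood at 308.0 CPM in littermate M2 and at 187.5 to 213.9 CPM in the other littermates, and Rps29, a zinc-binding protein of the small subunit, at 261.3 against 163.2 to 174.4 CPM. Rpl9 was picked here after its values were seen. Few genes stayed level: Rpl22 read 77.3 CPM in littermate M2 and 75.8 to 78.7 CPM in the others, and the relatives Rpl7l1 and Rps4l had ratios of 1.01 and 0.968.

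**Figure D2:**
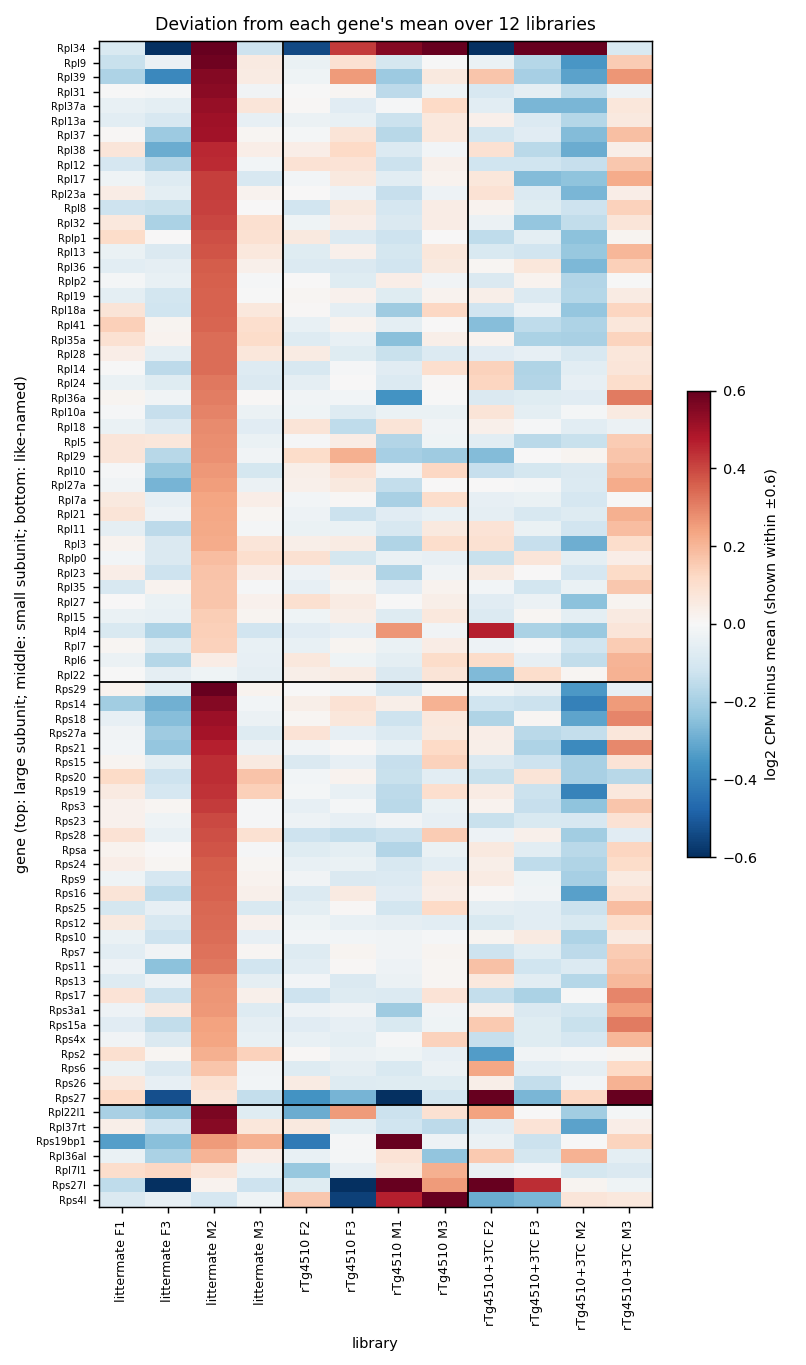
Log2 CPM of 80 of the 82 genes, each minus its own mean over the 12 libraries, with large subunit genes at the top, small subunit genes in the middle and like-named genes at the bottom, sorted within each by their value in littermate M2; colours stop at ±0.6. The column of littermate M2 is high for nearly every subunit gene, with Rpl22, Rps26 and Rps27 among the exceptions. By smaller amounts, rTg4510+3TC M3 is above the mean for most subunit genes and rTg4510+3TC M2 is below it for most.

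Other measures moved in the same library. Averaged over genes as log2 deviation from the 12-library mean, the 82 genes scored 0.335 in littermate M2 and -0.163 to 0.117 in the other 11 libraries; without Rpl34, which is listed at 0 in littermate F3, these were 0.324 and -0.152 to 0.119. In littermate M2, nuclear genes of oxidative phosphorylation scored 0.205, the highest of the 12 libraries. So did myelin markers at 0.83, with 10710 CPM summed over 8 genes against 2791 CPM in the lowest library, and endothelial markers at 0.39, while CA pyramidal neuron markers stood at -0.533. Littermate M2 also stood apart from its own group in microglial markers, at 0.0812 (519 CPM over 8 genes) against -0.377 to -0.294 (362.8 to 375.4 CPM), and in dentate granule neuron markers, at -0.0994 against 0.636 to 0.915. Translation factors scored -0.0152, ribosome biogenesis factors -0.0458 and mitochondrial ribosomal proteins 0.0579 in that library. The part of these markers in the ribosomal protein level was not tested. In bulk tissue, a different mix of cells and a different amount of message per cell cannot be told apart.

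Transcript length was measured beside this, since these messages are short (median 709 bases, against 2546 bases for tested genes). In littermate M2 the median log2 ratio to the other littermates was 0.0441 for the 354 other tested genes under 500 bases and 0.342 for the 21 ribosomal protein genes of that length. Between 500 and 1000 bases the medians were 0.0605 for 1367 other genes and 0.375 for 44 ribosomal protein genes. Over the other genes with transcripts under 1 kb, littermate F3 had the highest mean score, 0.123 against 0.0649 in littermate M2. The share of counts on the 82 genes in littermate F3 was the lowest of the littermates, at 1.157%. Summed as CPM, those other short transcripts were instead highest in littermate M2, at 72420 CPM. Littermate F1 followed at 66880 CPM, and littermate F3 stood at 64630 CPM. The part of transcript length was not tested.

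No gene of the 82 differed between rTg4510 mice and littermates by edgeR's quasi-likelihood test with Benjamini-Hochberg adjustment over 16618 genes, in which 5 genes in all (0.0301%) passed at an adjusted p under 0.05. The smallest adjusted p among the 82 was 0.945, and DESeq2 and limma-voom also called 0 of them. The fitted log2 fold changes were small and mostly negative: 72 of 82 were below 0 with a median of -0.0788, against 50.2% below 0 and a median of -0.0014 over all tested genes. Large subunit genes had a median of -0.0788 (38 of 44 negative) and small subunit genes one of -0.103 (30 of 31 negative). The median half-width of the unadjusted 95% interval of a single gene was 0.231. For most of them, differences within that size could not be told from 0 even before adjustment. Passing the test adjusted over 16618 genes would take larger differences. Without littermate M2 the median was 0.0133 and 34 of 82 values were negative, so the direction rested on that library. Cell type markers moved in the same comparison, each list with 8 genes, all detected: myelin markers had a median log2 fold change of -0.597 (8 of 8 negative; 6028 to 10710 CPM in littermates, 2791 to 6507 CPM in rTg4510), dentate granule neuron markers one of -0.532 (6 of 8 negative; 290 to 469.7 and 242.8 to 357.5 CPM), and microglial markers one of 0.341 (8 of 8 positive; 362.8 to 519 and 492.8 to 531.5 CPM). Of these 3 lists 0 genes passed the adjusted test, and their part in the values of the 82 genes was not tested. Single libraries set the outer myelin values, 10710 CPM in littermate M2 and 2791 CPM in rTg4510 F3. The other libraries lay at 6028 to 7292 CPM in littermates and 5479 to 6507 CPM in rTg4510. Endothelial markers had a median of -0.214 (8 of 8 negative) and were also highest in littermate M2.

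At an unadjusted p under 0.05, which 5.24% of all tested genes passed (2.62% in the lower direction), 1 of the 82 genes was lower in rTg4510. The count in either direction was 7 without littermate F3, 2 without rTg4510 M3, rTg4510+3TC F2 or rTg4510+3TC M3, and 0 without littermate F1, littermate M2 or rTg4510 M1. This was Rpl35a, a large subunit protein whose human gene is mutated in Diamond-Blackfan anaemia. Its levels were 57.4, 54.7, 68.1 and 58.1 CPM in littermates F1, F3, M2 and M3, and 51.0, 52.3, 45.3 and 55.3 CPM in rTg4510 F2, F3, M1 and M3. The groups overlapped through rTg4510 M3 and littermate F3, and the log2 fold change was -0.22 ± 0.10 (SE; edgeR, unadjusted p = 0.0435, adjusted p = 0.945).

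The libraries of the groups did not overlap for 4 genes, all lower in rTg4510 and all of the small subunit, Rps2, Rps24, Rps3 and Rpsa; over all tested genes 3.89% did not overlap in either direction and 1.72% did so with rTg4510 lower. Rpsa, also known as the laminin receptor, read 388.9, 383.3, 497.2 and 381.9 CPM in littermates F1, F3, M2 and M3, with 364.0, 367.5, 339.0 and 372.7 CPM in rTg4510 F2, F3, M1 and M3. The highest rTg4510 library lay below the lowest littermate by a few percent, and the log2 fold change was -0.19 ± 0.097 (edgeR, adjusted p = 0.965). Rps24, among the most abundant members, read 279.2, 273.7, 349.2 and 273.2 CPM in littermates; rTg4510 libraries lay at 253.6 to 263.7 CPM, a log2 fold change of -0.18 ± 0.094 (edgeR, adjusted p = 0.965). For Rps2 and Rps3, which line the channel where the message enters the small subunit, the values were -0.14 ± 0.083 and -0.19 ± 0.11 (edgeR, adjusted p = 0.965 for both). Rps2 and Rps3 were chosen for not overlapping. Without littermate M2 the log2 fold changes of Rpsa, Rps24, Rps2 and Rps3 were -0.0924, -0.0824, -0.107 and -0.0750, each nearer to 0 and not called.

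No gene of the 82 passed when rTg4510+3TC mice were compared with untreated rTg4510 mice, by edgeR, DESeq2 or limma-voom; by edgeR 0 of all tested genes (0%) passed, and by DESeq2 1 did. Of the 82 genes, 0 had groups that did not overlap, against 2.46% of tested genes. The median log2 fold change was -0.00606, with 45 genes below 0 and 37 above, and the quartiles were -0.0519 and 0.0243. Treated libraries went opposite ways, with a mean score of the 82 genes of -0.141 in rTg4510+3TC M2 and 0.117 in rTg4510+3TC M3. For 31 genes (37.8%), against 8% of tested genes, rTg4510+3TC M2 was the lowest of all libraries. At an unadjusted p under 0.05, which 3.82% of tested genes passed (1.68% with higher values), 1 gene was higher: Rps27, a zinc-binding protein of the small subunit. It rested on few counts, 23, 29, 15 and 30 in rTg4510 F2, F3, M1 and M3 and 108, 29, 36 and 52 in rTg4510+3TC F2, F3, M2 and M3. Its log2 fold change of 1.24 ± 0.46 (edgeR, unadjusted p = 0.0191, adjusted p = 1) leaned on rTg4510+3TC F2, where the row read 3.21 CPM, against 0.829, 1.11 and 1.91 CPM in the other 3 treated libraries. Without that library, or without rTg4510 M1, 0 of the 82 genes had an unadjusted p under 0.05 by edgeR, and without rTg4510 F3 the count was 2. The next smallest p-values for higher values in this comparison belonged to Rps6, the substrate of the S6 kinases (0.13 ± 0.082), and Rps15a (0.13 ± 0.11), and those for lower values to Rpl27 (-0.13 ± 0.074), Rps4l (-0.34 ± 0.20) and Rpl41 (-0.11 ± 0.088), all with an adjusted p of 1 by edgeR.

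Treated mice were also compared with littermates, in a comparison that shares the littermate libraries with the first. By edgeR 0 of 82 genes passed (0 also by DESeq2 and limma-voom), beside 8 of all tested genes (0.0481%). The median log2 fold change was -0.102 with 69 of 82 values negative, and without littermate M2 it was 0.0235 with 35 negative. At an unadjusted p under 0.05, passed by 8.59% of tested genes, 5 of the 82 were lower and 0 higher; 4.31% of tested genes passed in the lower direction. The count in either direction was 13 without rTg4510+3TC M3, 12 without littermate F3, 8 without littermate F1, 3 without rTg4510+3TC F2 and 2 without littermate M2. In this comparison myelin markers had a median log2 fold change of -0.318 (8 of 8 negative) and microglial markers one of 0.362 (6 of 8 positive), and their part in the values of the 82 genes was not tested. Littermate M2, highest in myelin markers, is part of this fit as well.

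The gene with the smallest p was Rpl41, whose product is the shortest of the ribosomal proteins. It read 203.8, 186.3, 234.8 and 197.7 CPM in littermates F1, F3, M2 and M3, 178.5, 187.0, 177.0 and 184.4 CPM in rTg4510 F2, F3, M1 and M3, and 154.5, 165.8, 162.0 and 193.4 CPM in rTg4510+3TC F2, F3, M2 and M3. Of the treated libraries, only M3 lay within the littermate range. The log2 fold change was -0.28 ± 0.088 (edgeR, unadjusted p = 0.00652, adjusted p = 0.407), and -0.215 (adjusted p = 0.555) without littermate M2.

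Rplp1, one of the acidic stalk proteins that recruit elongation factors, was the most abundant member per kb of transcript. It read 468.8, 434.6, 568.7 and 463.5 CPM in littermates, 452.4, 410.2, 398.4 and 434.6 CPM in rTg4510, and 390.8, 417.6, 365.8 and 439.2 CPM in rTg4510+3TC. The log2 fold change of rTg4510+3TC mice against littermates was -0.26 ± 0.093 (edgeR, unadjusted p = 0.0143, adjusted p = 0.452), with rTg4510+3TC M3 above the lowest littermate. Its partners in the stalk differed less: Rplp2 gave -0.14 ± 0.091 and Rplp0, the stalk's base, gave -0.067 ± 0.080 in the same comparison, neither called by edgeR (adjusted p = 0.688 and 0.859).

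The remaining 3 genes under an unadjusted p of 0.05 were Rps20 (-0.27 ± 0.11), Rpl37a (-0.27 ± 0.13) and Rps2 (-0.20 ± 0.083), with adjusted p by edgeR of 0.528, 0.581 and 0.535; the last pair was named for passing this limit. Groups did not overlap for 1 gene of the 82, Rpl31, against 5.86% of tested genes in either direction and 2.91% in the lower one. Rpl31, which lies at the exit of the peptide tunnel, read 157.0, 156.3, 229.3 and 155.3 CPM in littermates, with 147.4, 151.9, 141.7 and 154.2 CPM in rTg4510+3TC. The highest treated library lay just under the lowest littermate. The log2 fold change was -0.23 ± 0.12 (edgeR, adjusted p = 0.612), and -0.0706 without littermate M2.

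**Figure D3:**
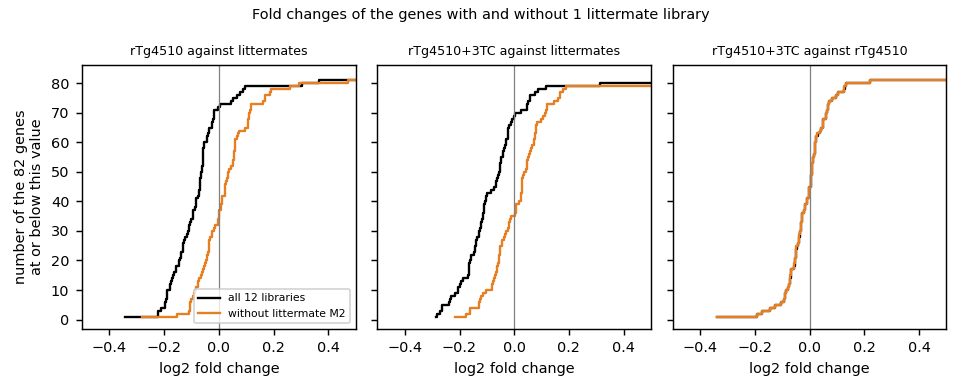
Cumulative number of the 82 genes at or below each log2 fold change in the 3 comparisons, from the fit of all 12 libraries (black) and from the fit without littermate M2 (orange); the horizontal axis stops at ±0.5 and leaves out Rps27, Rps27l or Rpl34 where they lie beyond it. Leaving out littermate M2 moved the median from -0.0788 to 0.0133 and from -0.102 to 0.0235 in the comparisons with littermates, and changed it by under 0.001 between the transgenic groups.

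The change with treatment was also compared between labelled females and males, where 0 of 82 genes and 0% of tested genes passed the test of the difference. At an unadjusted p under 0.05, which 3.57% of tested genes passed, 2 of the 82 were found. The change of Rps27l was higher in females by 1.39 ± 0.46 on the log2 scale and that of Rpl29 lower by 0.59 (log2 difference -0.59 ± 0.21), with an adjusted p by edgeR of 0.999 for both. These values rest on 2 libraries of each sex in each group.

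Levels within the set were compared per kb of the shortest consensus coding transcript, in CPM per kb averaged over 12 libraries. The highest were Rplp1 at 876, Rps24 at 582, Rps15 at 581 and Rps29 at 445 CPM per kb, and the medians of the large and small subunit genes were 178 and 191 CPM per kb. The lowest were Rpl34 at 1.82, Rps27 at 3.34, Rps27l at 11.7 and Rps19bp1 at 17.7 CPM per kb. Rps20 stood at 26.6 CPM per kb, where its only coding transcript in the annotation, 3706 bases long, sets the length; its level was 85.4 to 132.8 CPM. The ratio of large to small subunit counts was steady, 1.49 in littermate M2 and 1.531 to 1.579 in the other 11 libraries.

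Members also varied less between libraries than other genes. The median SD of log2 CPM over 12 libraries was 0.155 for the 82 genes and 0.246 for all tested genes, which have a lower median level (18.1 CPM, against 139.7 CPM for the set), and 74 of the 82 lay under the median of all genes. The steadiest was Rpl15, at 99.1 to 113.3 CPM in littermates, 97.0 to 107.1 CPM in rTg4510 mice and 96.9 to 106.4 CPM in treated mice, an SD of 0.0677; Rpl7, Rpl35 and Rps26 followed at 0.0811, 0.0878 and 0.0953. The least steady were Rpl34 (1.33), Rps27 (0.687), Rps27l (0.491) and Rps4l (0.323), 3 of which are also the lowest in level.

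A few genes that belong to every ribosome had next to no counts. Rpl26 was listed at 0 in all 12 libraries and Rpl30 had 59 counts in all, so that both fell outside the rule, as did Rpl3l with 106 counts, Rpl39l with 8, and Rpl10l and Rps27rt with 0. Just inside the limit of 120 were Rpl34 with 366 counts in all and Rps27 with 478. Rpl34 had 36, 0, 56 and 24 counts in littermates F1, F3, M2 and M3, 13 to 55 in rTg4510 mice and 13 to 48 in treated mice. All other subunit genes had at least 607 counts in every library, the lowest being Rpl39 in littermate F3. The rows of Rpl26, Rpl30, Rpl34 and Rps27 were thus low in all 3 groups. Rpl3l is known from striated muscle, and Rpl10l and Rpl39l from testis.

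Many of these genes have processed pseudogenes, so the share of each transcript's 50-base words that also occur in another annotated gene was counted. Over the 75 subunit genes it had a median of 61.2% and ran from 0% to 98.6%, the latter for Rps27; it was 71.3% for Rpl26, 76.4% for Rpl30 and 50.6% for Rpl34. The share did not sort the low rows from the rest: of the 6 genes over 90%, Rps27 stood at 3.34 CPM per kb, while Rpl5, Rpl35, Rpl10, Rps10 and Rps12 stood at 73.6, 130, 153, 271 and 290 CPM per kb. How reads with several matches were counted is not given in the sources used here, and its part in the low rows was not tested. Levels of genes that share much sequence are uncertain for this reason. Rps3 (3.0%), Rps20 (7.6%) and Rpl8 (7.9%) are among the 4 that share under 10%. For Rps20 the share is taken over its annotated transcript of 3706 bases, so its low percentage depends on that length. Rpl8, nearly free of shared sequence, was also highest in littermate M2, at 330.3 CPM against 226.0 to 248.7 CPM in the other littermates.

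**Figure D4:**
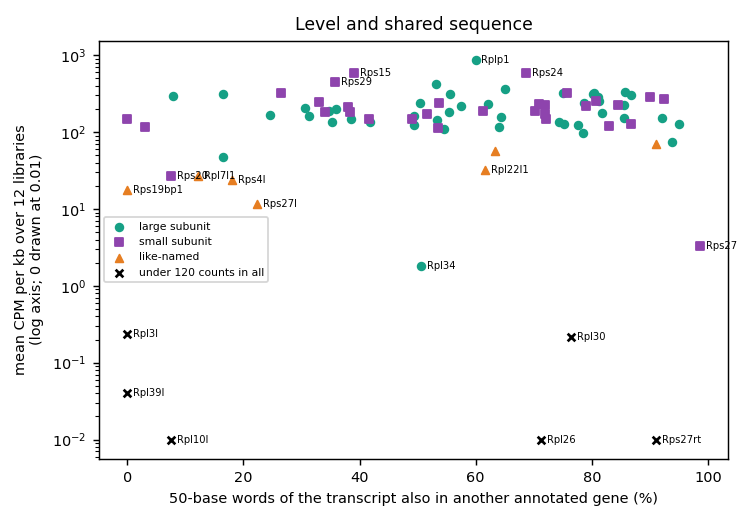
Mean level of each gene over 12 libraries (CPM per kb, log axis, with 0 drawn at 0.01) against the share of its 50-base words found in another annotated gene (percent), by role. Rpl34, Rps27, Rpl26 and Rpl30 lie far below the other subunit genes, which stand at 26.6 to 876 CPM per kb at every share.

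The like-named relatives were low beside their partners. Rpl22l1, which in mouse is repressed by Rpl22, had 16.8 to 31.8% of the counts of Rpl22; the highest ratio was in littermate M2. Rpl36al had 31.3 to 55.0% of the counts of Rpl36a, Rpl7l1 had 17.7 to 24.1% of those of Rpl7, and Rpl37rt had 13.1 to 16.9% of those of Rpl37. None of these ratios separated the groups.

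Rps4l had the smallest p among genes higher in rTg4510. It read 17.2, 17.7, 17.0 and 17.9 CPM in littermates F1, F3, M2 and M3, then 20.4, 12.4, 25.2 and 28.3 CPM in rTg4510 F2, F3, M1 and M3, and 14.8, 15.1, 19.2 and 19.1 CPM in rTg4510+3TC F2, F3, M2 and M3. Littermates were tightly grouped and rTg4510 libraries lay on both sides of them, and the log2 fold change was 0.31 ± 0.20 (edgeR, adjusted p = 0.971). Its partner Rps4x gave -0.017 ± 0.096 in the same comparison.

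Rps27l, a target of p53, read 4.997, 2.75, 5.64 and 5.10 CPM in littermates. The same row gave 5.29, 3.45, 8.50 and 6.65 CPM in rTg4510 and 9.17, 7.58, 5.63 and 5.46 CPM in rTg4510+3TC. The groups overlapped throughout, with log2 fold changes against littermates of 0.37 ± 0.29 in rTg4510 and 0.59 ± 0.29 in rTg4510+3TC (edgeR, adjusted p = 0.984 and 0.612). Of 17 p53 targets tested, 0 passed in any comparison. Pmaip1, which promotes cell death, had the smallest p of them in both comparisons with littermates. It stood at 1.57 to 3.02 CPM in littermates but 4.65 to 6.09 CPM in rTg4510, a log2 fold change of 1.29 ± 0.28 (edgeR, adjusted p = 0.443). For rTg4510+3TC against littermates it gave 1.47 ± 0.28 (edgeR, adjusted p = 0.162). Between the transgenic groups the smallest p was that of Rprm, at -0.885 ± 0.225 (edgeR, unadjusted p = 0.00168).

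**Figure D5:**
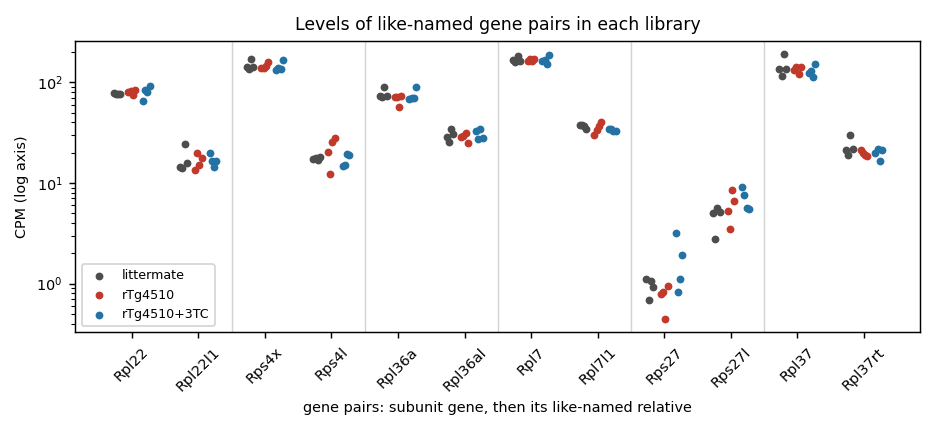
CPM (log axis) of 6 subunit genes, each followed by its like-named relative, in every library, coloured by group with 4 points a group. The relative lies below its partner in each pair but that of Rps27, whose row had few counts, and no pair separates the groups.

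Subunit genes with other symbols were read beside the set. Fau, made like Rps27a as a fusion, in its case to a ubiquitin-like protein, and Gnb2l1 (Rack1), a scaffold on the small subunit, were both highest in littermate M2, at 180.4 and 177.3 CPM. Fau read 137.4, 131.9 and 140.5 CPM in littermates F1, F3 and M3, 135.1 to 150.3 CPM in rTg4510 mice and 130 to 142.3 CPM in treated mice. The groups overlapped, and the log2 fold changes against littermates were -0.046 ± 0.093 in rTg4510 and -0.11 ± 0.093 in rTg4510+3TC (edgeR, adjusted p = 0.998 and 0.787). Gnb2l1 gave -0.081 ± 0.095 and -0.12 ± 0.095, and Rps27a gave -0.12 ± 0.13 in the second comparison.

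Genes that serve the ribosome from outside gave no calls either: in each comparison 0 genes passed in the lists of translation factors (43 tested), ribosome biogenesis factors (49), mTORC1 and Myc regulators (24), hosts of small nucleolar RNAs (15), mitochondrial ribosomal proteins (77) and nuclear oxidative phosphorylation genes (79). Between rTg4510 and littermates the median log2 fold changes were -0.00505 for translation factors, 0.0262 for biogenesis factors, -0.0163 for mTORC1 and Myc regulators and -0.0174 for mitochondrial ribosomal proteins, each nearer to 0 than the -0.0788 of the 82 genes. That median of the 82 genes rested on littermate M2 and was 0.0133 without it, while the lists are given here only from the fit of all libraries. Nuclear oxidative phosphorylation genes had a median of -0.0493 with 65 of 79 negative. Their score, too, was highest in littermate M2, at 0.205.

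Hosts of small nucleolar RNAs, several of which also start with pyrimidine runs, had a median of -0.166 with 14 of 15 negative. The one with the smallest p was Gas5, at 92.9, 83.8, 95.6 and 98.4 CPM in littermates F1, F3, M2 and M3 and 77.8, 69.6, 74.7 and 78.5 CPM in rTg4510 F2, F3, M1 and M3. Every rTg4510 library lay below every littermate, and the log2 fold change was -0.30 ± 0.095 (edgeR, unadjusted p = 0.0071, adjusted p = 0.945). Between rTg4510+3TC mice and littermates the list's median was -0.235, and Gas5 gave -0.29 ± 0.095 (edgeR, adjusted p = 0.417). In littermate M2, Gas5 lay within the range of the other littermates. The listed hosts together summed to 1872 CPM there, against 1212 to 1229 CPM in the other littermates. Their mean log2 score was 0.171 in littermate M2 and 0.0863 to 0.169 in the others.

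Among regulators, Maf1, a repressor of RNA polymerase III that mTORC1 phosphorylates, read 60.02, 62.3, 65.0 and 63.1 CPM in littermates, 58.7, 66.3, 58.4 and 65.2 CPM in rTg4510 and 44.8, 49.9, 51.7 and 58.7 CPM in rTg4510+3TC. Treated libraries lay lower, with rTg4510+3TC M3 just inside the rTg4510 range, and the log2 fold change of rTg4510+3TC against rTg4510 was -0.28 ± 0.086 (edgeR, unadjusted p = 0.00663, adjusted p = 1). Wdr12, a factor of large subunit assembly, read 19.3 to 23.0 CPM in littermates, 25.3 to 27.2 CPM in rTg4510 mice and 25.1 to 27.7 CPM in treated mice. It did not overlap with littermates in either group, and its log2 fold changes of 0.29 ± 0.082 and 0.32 ± 0.082 did not pass (edgeR, adjusted p = 0.945 and 0.333).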

How the data were processed

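The deposited table held raw counts per gene for 12 libraries, per the file headers and values, and was used as the authors made it. STAR, DESeq2 and the mm10 build are named in the submitters' processing notes; per the labels' protocols, RNA was extracted with Trizol and spin columns for a poly(A) TruSeq kit. Of 24411 rows, 27 had symbols turned into dates (0.285 to 0.363% of counts) and were left out. The members, lists and library exclusions were chosen with earlier results of these data known.

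Counts were tested with edgeR 4.0.16 (R 4.3.3; TMM scaling, filterByExpr with minimum counts of 10 and 15 in total, quasi-likelihood test, group as the term, Benjamini-Hochberg over 16618 genes, threshold 0.05), and checked on simulated data. A standard error is the log2 fold change divided by the square root of F. CPM uses TMM-scaled totals. DESeq2 1.42.0 and limma 3.58.1 were alternatives. A list is described by counts and its median, with no test. Named genes are the 3 smallest p in each direction and comparison, the 4 highest and lowest per kb, the 4 largest and smallest SD, fixed stalk, paralogue and fusion genes, and up to 3 genes of each other list; others are marked where they appear. Lengths are from GENCODE M21 (mm10) and promoters from RefSeq (GRCm38.p6). Intervals of shares cover counting error only.

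Same-numbered libraries of different groups did not deviate together: the correlation over 8 pairs ran from -0.246 to 0.0504. This gave no sign that the numbers pair samples, but low correlation cannot exclude pairing, and the labels do not explain the numbers. Some genes of the set and of the lists are counted but not reported by name here.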

Additional observations from a re-analysis of the deposited data

Results flagged for a closer look

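In 105 groups of 4 libraries tested for a value far from the other 3, 12 such values were found. For independent groups chance gives about 5%. These groups share libraries, and some of the genes were named from these same data, so the count is not a test against that rate. Of the 12, 7 belong to littermate M2. Its share of counts on the ribosomal protein genes was 1.527%, beside 1.157 to 1.206% in the other littermates. Its levels were 24.61 CPM for Rpl22l1 (others 14.11 to 15.8 CPM), 89.92 CPM for Rpl36a (71.75 to 73.49 CPM), 193.6 CPM for Rplp2 (146.4 to 150.4 CPM), 349.2 CPM for Rps24 (273.2 to 279.2 CPM), 261.3 CPM for Rps29 (163.2 to 174.4 CPM) and 497.2 CPM for Rpsa (381.9 to 388.9 CPM).

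In rTg4510 mice, Rpl36a stood at 56.79 CPM in M1, below the 71.66 to 72.49 CPM of the others, and Rps26 stood at 130.3 CPM in F2, above 119.2 to 119.8 CPM. In rTg4510+3TC mice, M3 was high for Rpl10 (139.1 CPM, others 110.7 to 114.9 CPM) and Rpl36a (90.4 CPM, others 68.44 to 69.41 CPM), and M2 was low for Rps29 (135.2 CPM, others 165.1 to 168.5 CPM). Rpl36a was thus far out in 1 library of each group, upward in 2 and downward in 1.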

How the results depend on the processing

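In each of the 24 alternatives of each comparison, 0 of the 82 genes passed, DESeq2's Wald test and limma-voom included. The median log2 fold change kept within 1 SD of the libraries' scores (0.14), but its sign did not always hold. Leaving out 1 library at a time gave -0.14 to 0.0133 for rTg4510 against littermates, -0.0553 to 0.0283 for rTg4510+3TC against rTg4510 and -0.166 to 0.0235 for rTg4510+3TC against littermates; the positive ends of the first and the last came without littermate M2. Without littermate M2, rTg4510 F3 and rTg4510+3TC F2 together (highest in myelin, striatal and thalamic markers respectively), the comparisons with littermates gave 0.00686 and 0.0185, near the 0.0133 and 0.0235 without littermate M2 alone. Without rTg4510 M1, littermate F1 and littermate F3, which are high in the choroid plexus gene Ttr, they gave -0.187 and -0.221. There, 17 genes in place of 5 had an unadjusted p under 0.05 by edgeR for rTg4510+3TC against littermates. That fit keeps only M2 and M3 of the littermates, so littermate M2 weighs more in it than in the main fit. Leaving out the libraries high in Ttr cannot be told apart here from the greater weight of littermate M2. With a replicate block the medians were -0.0569, -0.0523 and -0.114 and 0 genes passed. Whether the replicate numbers pair samples is not stated in the labels. The mean share of counts in littermates was 1.188 to 1.312% with 1 library left out.

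Calls over all genes moved more. For rTg4510 against littermates they were 5, and 23 by DESeq2, 36 without littermate M2, rTg4510 F3 and rTg4510+3TC F2, 0 without the libraries high in Ttr or with the replicate block, and 4 to 9 with 1 library left out. For rTg4510+3TC against littermates they were 8, and 109, 71, 0, 0 and 6 to 16 in the same order. Between the transgenic groups they were 0, and 1 by DESeq2. The cause was not tested.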
